A study of Mus musculus with 778 samples.

Results

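The mitochondrial ribosomal protein genes are the nuclear genes whose symbols begin with Mrpl (large subunit) or Mrps (small subunit), and 78 of the 23201 genes counted in single mouse oocytes carry such a symbol followed by a number. They were chosen by symbol alone, without regard to their levels. The mitochondrial ribosome translates the few messenger RNAs made from mitochondrial DNA, which code for core proteins of the respiratory chain and of ATP synthase. Its RNA is made inside the mitochondrion, whereas its proteins are encoded in the nucleus, made in the cytoplasm and imported. Many have a counterpart in the bacterial ribosome and the others exist only in mitochondria. Oocytes increase their mitochondria greatly as they grow, and the egg is the source of the mitochondria of the embryo.

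Single-cell RNA-seq with unique molecular identifiers (UMIs), tags that let copies of one captured RNA molecule be counted once, covered 223 oocytes of 5 growth stages. Non-growing oocytes (NGO, 46 cells, under 20 μm in diameter) came from mice 3 to 4 days old. Growing oocytes of 30 to 45 μm (GO1, 51 cells), 50 to 55 μm (GO2, 26 cells) and 60 to 65 μm (GO3, 44 cells) and fully grown oocytes (FGO, 56 cells, over 70 μm) came from females 3 to 4 weeks old. All were wild-type ICR ovaries with no treatment, so the step from NGO to GO1 is a step in both oocyte growth and age of the mouse, which cannot be told apart. The 4 sequencing libraries could not be tied to single cells. Each stage was therefore treated as 1 pooled sample without replicates, and no p-value was computed.

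Levels are UMIs per 1000000 UMIs of the stage (CPM), summed over its oocytes, and are thus shares of the captured RNA and not amounts per oocyte. A gene was said to have risen or fallen when its CPM differed at least 2-fold between stages and was at least 10 in the higher one. Intervals in parentheses are exact at 95% and cover counting error only, not the spread between oocytes or libraries. Stage totals ran from 24976634 UMIs (GO2) to 64311908 (FGO). In GO1 the 10 deepest oocytes gave 80.4% of the UMIs and the median oocyte had 110146, against 540432 or more in NGO and at the later stages, so sums are given beside values per oocyte. All 13 oocyte marker genes listed reached 10 CPM. Of 27 markers of granulosa, stromal and blood cells, Cyp19a1, the aromatase gene of granulosa cells, was the only one to do so, and the summed level of the 11 granulosa markers was lowest in NGO (11.3 CPM) and highest in GO1 (31.8 CPM), of which Cyp19a1 gave 1.11 and 16.3 CPM. The 7 stromal markers went the other way, from a sum of 7.98 CPM in NGO to 0.449 CPM in GO1. The part of other cells in the results below was not tested.

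Together the 78 genes took slightly more than 1 in 100 UMIs at every stage, and their share was lowest in NGO. The summed shares, in order of growth, were 1.06%, 1.26%, 1.23%, 1.27% and 1.27%. From NGO to GO1 this was a difference of 0.26 on the log2 scale, and from GO1 to FGO the ratio was 1.004 (1.0002 to 1.008). Over single oocytes, the lowest, median and highest shares were 0.805%, 1.05% and 1.33% in NGO, 0.441%, 1.45% and 1.83% in GO1, 0.485%, 1.28% and 1.56% in GO2, 1.07%, 1.28% and 1.71% in GO3, and 1.10%, 1.34% and 1.78% in FGO. The stages overlapped, and 3 GO2 oocytes (0.485%, 0.487% and 0.642%) and a GO1 oocyte (0.441%) lay below all NGO oocytes. Within GO1 the share moved with depth, at 1.21% in the 10 deepest oocytes and 1.5% in the other 41.

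**Figure D1:**
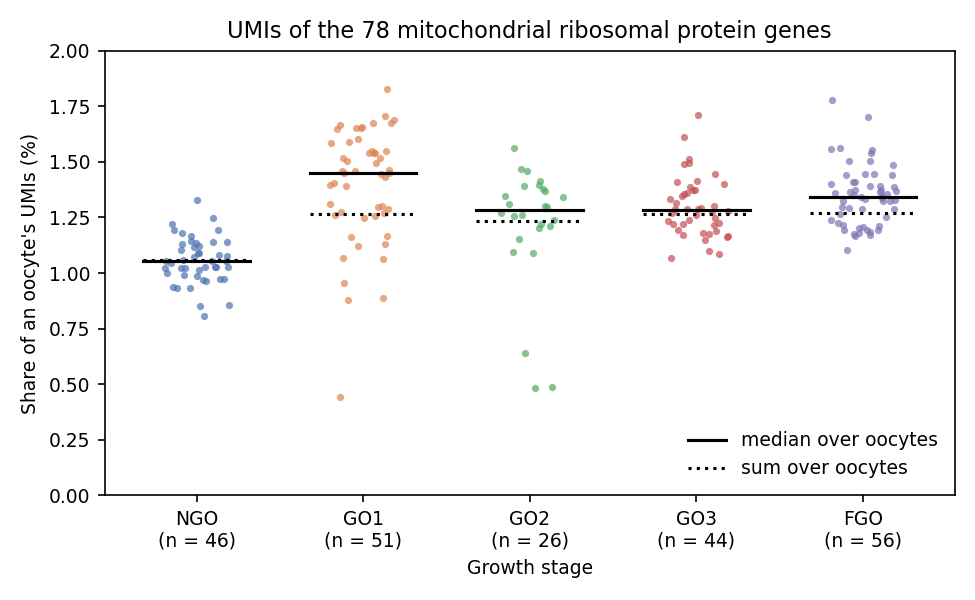
Share of an oocyte's UMIs (%) that fell on the 78 mitochondrial ribosomal protein genes, by growth stage, with a point for each oocyte, a solid bar for the median over oocytes and a dotted bar for the sum over oocytes. The medians run from 1.05% in NGO to 1.45% in GO1, and GO1 shows the widest range.

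A single gene carried most of the difference in the summed share between NGO and GO1. Mrps33, a small-subunit protein found only in mitochondria, made up 5.78% of the UMIs of the whole family in NGO, 16.01% in GO1 and 10.6% in FGO. Without it the summed level was 9960 CPM in NGO, then 10624, 10615, 10882 and 11351 CPM through the later stages in order of growth. The 51 large-subunit genes summed to 6457 CPM in NGO and 6435 CPM in GO1. The 26 small-subunit genes summed to 3557 CPM in NGO and 5619 CPM in GO1, and without Mrps33 to 2946 CPM and 3593 CPM. On the log2 scale the small subunit was higher in GO1 by 0.66, and by 0.66 or more under each alternative scaling and weighting of oocytes, whereas the large one was at -0.0049 and turned between -0.19 and 0.15 with the setting. Mrps33 supplied most of the gap.

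Genes of ribosomal proteins of the cytoplasm (symbols in Rpl or Rps) and of subunits of respiratory complex I, which also carry products of mitochondrial DNA, give a measure of how other abundant families stood. The 85 cytoplasmic ribosomal protein genes summed to 42243 CPM in NGO and 26098 CPM in GO1. The 37 complex I genes summed to 11852 CPM in NGO and 8245 CPM in GO1. Both families took a smaller share in GO1, whereas the mitochondrial ribosomal protein genes took a larger one. Median shares per oocyte were 4.30% in NGO and 3.65% in GO1 for the cytoplasmic genes, and 1.19% and 0.989% for complex I. On the log2 scale the cytoplasmic sum was at -0.69 from NGO to GO1, and at -0.32 as a mean over oocytes. Complex I was at -0.52 and -0.33, so both differences were smaller when each oocyte counted equally. Within the step, 34 of 78 cytoplasmic genes (43.6%) and 8 of 35 complex I genes (22.9%) tested fell, where 25.7% of all genes tested did, with medians of -0.83 and -0.66 on the log2 scale, against a median of -0.13 for the mitochondrial ribosomal protein genes. These medians are descriptions of 1 pooled sample per stage.

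Nearly the whole family was detected at every stage. At 10 CPM or more in some stage were 77 of the 78, with 75 so in all 5 and 53 at 100 CPM or more in some stage. The exception, Mrpl24, lay between 1.07 and 1.96 CPM at every stage, and its exons overlap those of Rrnad1 on the opposite strand. With each oocyte thinned to 20000 UMIs, the median oocyte held UMIs of 63.5, 53, 59, 60.5 and 62 of the genes from NGO to FGO. Without thinning the medians were 78, 68, 77, 78 and 78.

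Most of the genes moved little over the whole of oocyte growth. For 52 of the 77 genes (67.5%) the highest stage was within 2-fold of the lowest, as it was for 42.4% of the 8671 genes of the table that reached 10 CPM. The median ratio of highest to lowest stage was 1.71 in the family and 2.24 over all those genes. The steadiest was Mrps18b, at 113.1 CPM in NGO and 114.8, 119.95, 116.1 and 124.5 CPM in turn at the stages from GO1 to FGO. The least steady was Mrpl19, with an 8.16-fold span. NGO was the highest stage of 33 genes (42.9%) and the lowest of 33 others, near the shares of genes at large (45.7% and 36.2%). FGO was the highest stage of 18 genes (23.4%, against 11.9% of all genes), and GO1, GO2 and GO3 were the highest of 12, 7 and 7.

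**Figure D2:**
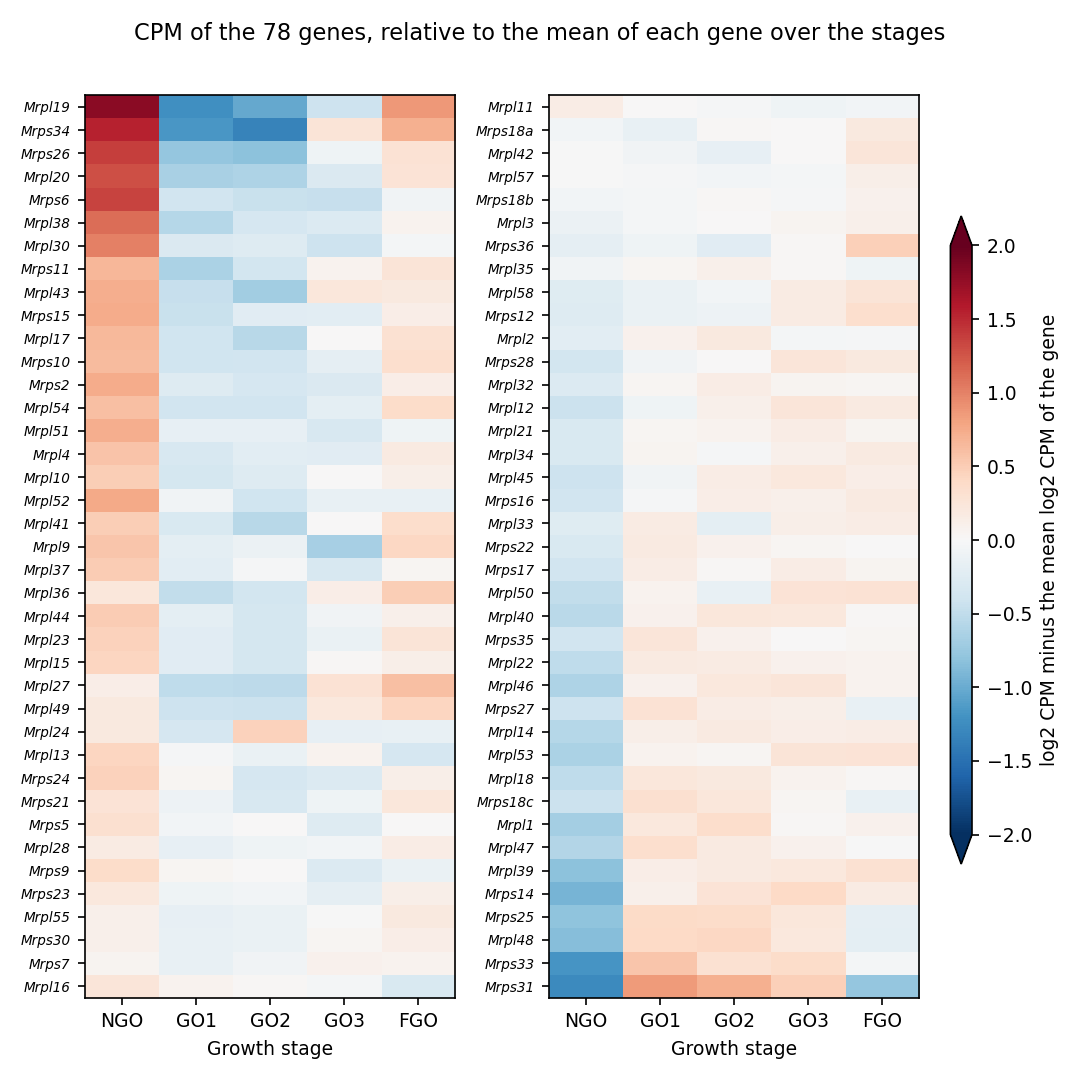
Level of each of the 78 genes at the 5 stages, as log2 CPM minus the mean log2 CPM of that gene over the stages, with genes in order of the log2 ratio of GO1 over NGO from Mrpl19 (-3.03) to Mrps31 (2.12). NGO stands apart from GO1 and GO2 at both ends of the order, with FGO between them for Mrps31, Mrpl19 and Mrps34. GO1, GO2, GO3 and FGO differ little for most genes.

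The step from NGO to GO1, in which oocyte growth and mouse age change together, shows which genes differ between these stages. In it 5 of the 77 genes tested rose and 13 fell. Over the 8527 genes tested, 20.6% rose and 25.7% fell, so both shares in the family (6.49% and 16.9%) were below those of genes at large. The family's median was -0.13 on the log2 scale, against -0.15 over all genes tested. The count depends on the scaling and on the weight of deep oocytes, with 8 rising and 10 falling under TMM factors, which shift the log2 ratio of all genes by 0.16, and 7 rising and 20 falling when each oocyte counted equally, where 34.6% of all genes fell. Of the 50 large-subunit genes tested 1 rose and 6 fell, and of the 26 small-subunit genes 4 rose and 7 fell. Of the 46 genes tested whose proteins have a bacterial counterpart 1 rose and 9 fell, and of the 30 confined to mitochondria 4 rose and 4 fell. Mrps36, long named for the small subunit but since assigned to the 2-oxoglutarate dehydrogenase complex, was kept out of both subunits.

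**Figure D3:**
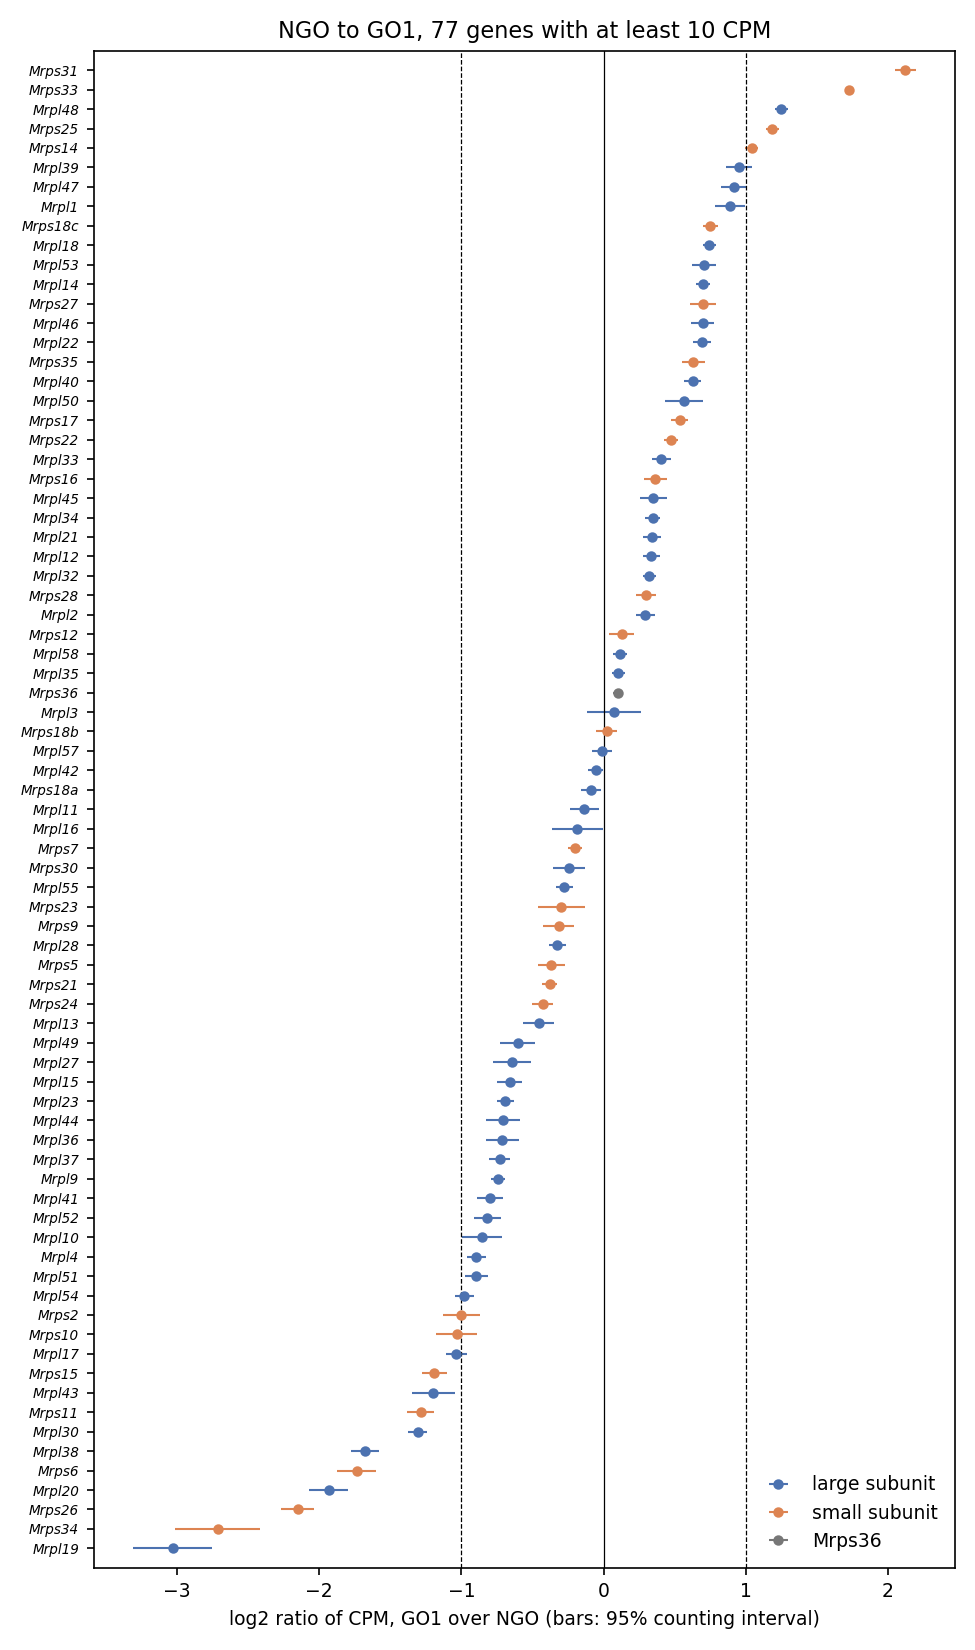
Log2 ratio of CPM in GO1 over NGO for the 77 genes of the family that passed the minimum of 10 CPM, with 95% counting intervals (for some genes narrower than the point), coloured by subunit, and dashed lines at 2-fold. The 5 genes above the upper line and the 13 below the lower one rose and fell, and the other 59 lie between the lines.

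Of the 5 genes that rose, Mrps33, Mrps31 and Mrps25 were small-subunit proteins without a bacterial counterpart. Under each alternative scaling and weighting of oocytes more genes rose, with Mrpl47 of the large subunit among them. Mrps33 had the most UMIs of the family, 287892 over all stages. In mm9 it lies at chr6:39751803-39760987 on the minus strand. It stood at 611, 2026, 1707, 1780 and 1352 CPM from NGO to FGO in order of growth, a 3.32-fold (3.26 to 3.38) rise from NGO to GO1, which ran from 3.56-fold to 6.51-fold under the alternative scalings and weightings of oocytes. Its lowest, median and highest oocytes were at 434, 577 and 953 CPM in NGO, and at 655, 3835 and 7192 CPM in GO1. The ranges overlapped at their edges, and within GO1 the level moved with depth: it was 1559 CPM in the 10 deepest oocytes and 3945 CPM in the other 41. Both values lay above the highest NGO oocyte. The part of depth in the size of the rise was not tested.

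Mrps31, another small-subunit protein found only in mitochondria, had the largest rise in the sums. It lies at chr8:23521812-23540137 on the plus strand of mm9. Its level was 76.4 CPM in NGO, then 333, 300, 257 and 107.8 CPM through the later stages in order of growth, so that it rose 4.36-fold (4.15 to 4.58) and then fell 3.09-fold (2.99 to 3.19) from GO1 to FGO. Under the alternatives the rise ran from 4.67-fold to 9.78-fold and the fall from 3.06-fold to 4.88-fold. Single oocytes ran from 15.1 CPM through a median of 76.6 to 132.1 CPM in NGO, from 0 through 450 to 1429 CPM in GO1, and from 48.2 through 103.7 to 180 CPM in FGO. Only 1 of the 51 GO1 oocytes was without a UMI of it. NGO and FGO overlapped over most of their ranges, and the 3 growing stages stood above both in their medians.

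Mrpl48, at chr7:107694265-107756811 (minus strand), was the only large-subunit gene that rose. It was at 210 CPM in NGO and 499, 504, 435 and 331 CPM in turn at the stages from GO1 to FGO, a rise of 2.38-fold (2.31 to 2.46). The lowest GO1 oocyte (202 CPM) lay below the NGO median (203 CPM) and the GO1 median was 521 CPM. Mrps25, a mitochondria-specific protein of the small subunit, followed nearly the same course with 216, 491, 488, 440 and 334 CPM, 2.28-fold (2.21 to 2.35) from NGO to GO1. Mrps14, which has a bacterial counterpart, rose least (214 to 441 CPM, 2.06-fold, 1.99 to 2.13) and reached its highest level in GO3 (537 CPM). In an even thinning of all oocytes to 20000 UMIs the rise of Mrps14 was under 2-fold, while Mrps31, Mrps33, Mrpl48 and Mrps25 rose under every scaling and weighting of oocytes tried. Exons of Mrpl48 and Mrps25 overlap those of Rab6 and Nr2c2 on the opposite strand, and whether the counting used strand is not given in the sources used here. Copies named as pseudogenes of Mrps33 and Mrpl48 exist, so their reads could also be shared.

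Mrpl39, Mrpl47 and Mrpl1 came next in order, at log2 ratios of 0.95, 0.92 and 0.89, just inside the 2-fold limit. Mrpl47 passed the limit under all 5 alternative scalings and weightings (log2 1.02 to 1.69). Mrpl39 passed it with DESeq2 size factors and TMM factors, but dropped to 0.45 as a mean over oocytes and 0.34 after thinning. Mrpl1 passed it with TMM factors, but changed sign after thinning (-0.095), where 53 and 55 UMIs of it were left. Mrpl39 stood at 56.5 CPM in NGO and 109.4 CPM in GO1. Mrpl47, the counterpart of a bacterial protein at the exit of the nascent-chain tunnel, stood at 58.97 CPM in NGO and 111.5 CPM in GO1. Mrpl1, which belongs to the mobile L1 stalk of the large subunit, stood at 44.6 CPM in NGO and 82.8 CPM in GO1.

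The genes that fell were on the whole low or moderate in level, and they came from both subunits. Mrpl19, a large-subunit protein with a bacterial counterpart at chr6:81907845-81915952 (minus strand), fell most in the sums, 8.16-fold (6.75 to 9.92). Its level was 37.5, 4.60, 5.32, 8.09 and 19.6 CPM from NGO to FGO in order of growth. UMIs of it were seen in 45 of 46 NGO oocytes and in 24 of 51 GO1 oocytes, and a single GO1 oocyte at 237 CPM was above the highest NGO oocyte (74.3 CPM). Mrps34, a mitochondria-specific small-subunit protein, was at 26.7, 4.07, 3.60, 10.9 and 14.9 CPM from NGO to FGO, a fall of 6.55-fold (5.34 to 8.09). Its exons overlap those of Nme3 on the same strand, and those of Mrpl19 overlap AW146020 on the opposite strand, so that reads may be shared. With equal weight for each oocyte the fall of Mrpl19 was -1.71 on the log2 scale, and those of Mrps34 (-2.98), Mrps26 (-2.97) and Mrpl38 (-2.32) were larger, as they also were after thinning and without the 10 deepest oocytes of each stage, where Mrpl19 was at -1.78 and -1.99.

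Mrps26 at chr2:130389478-130394431 (plus strand) had nearly separate ranges of oocytes in NGO and GO1. It is a small-subunit protein of mitochondria alone. From 125.4 CPM in NGO it fell 4.44-fold (4.10 to 4.81) to 28.3 CPM in GO1, and stood at 27.3 in GO2, 45.6 in GO3 and 58.7 in FGO. NGO oocytes ran from 51.7 through a median of 122.4 to 192 CPM, and GO1 oocytes from 0 through 12.3 to 51.8 CPM, so the ranges met only at their ends. Mrpl38, a large-subunit protein at chr11:115993131-116000182 (minus strand), fell 3.20-fold (2.98 to 3.42), from 132.4 CPM in NGO to 41.4 in GO1, with 48.3 in GO2, 50.9 in GO3 and 64.2 in FGO. Its oocytes ran from 68.7 to 197 CPM in NGO and from 0 to 131.3 CPM in GO1, with medians of 124.6 and 23.6 CPM. For both genes the summed level of the 10 deepest GO1 oocytes (31.6 and 44.8 CPM) was higher than that of the other 41 (14.5 and 27.3 CPM). That summed level was lower than the level of every NGO oocyte. Under the alternatives the fall of Mrps26 ran from 3.97-fold to 8.81-fold and that of Mrpl38 from 2.86-fold to 5.49-fold.

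**Figure D4:**
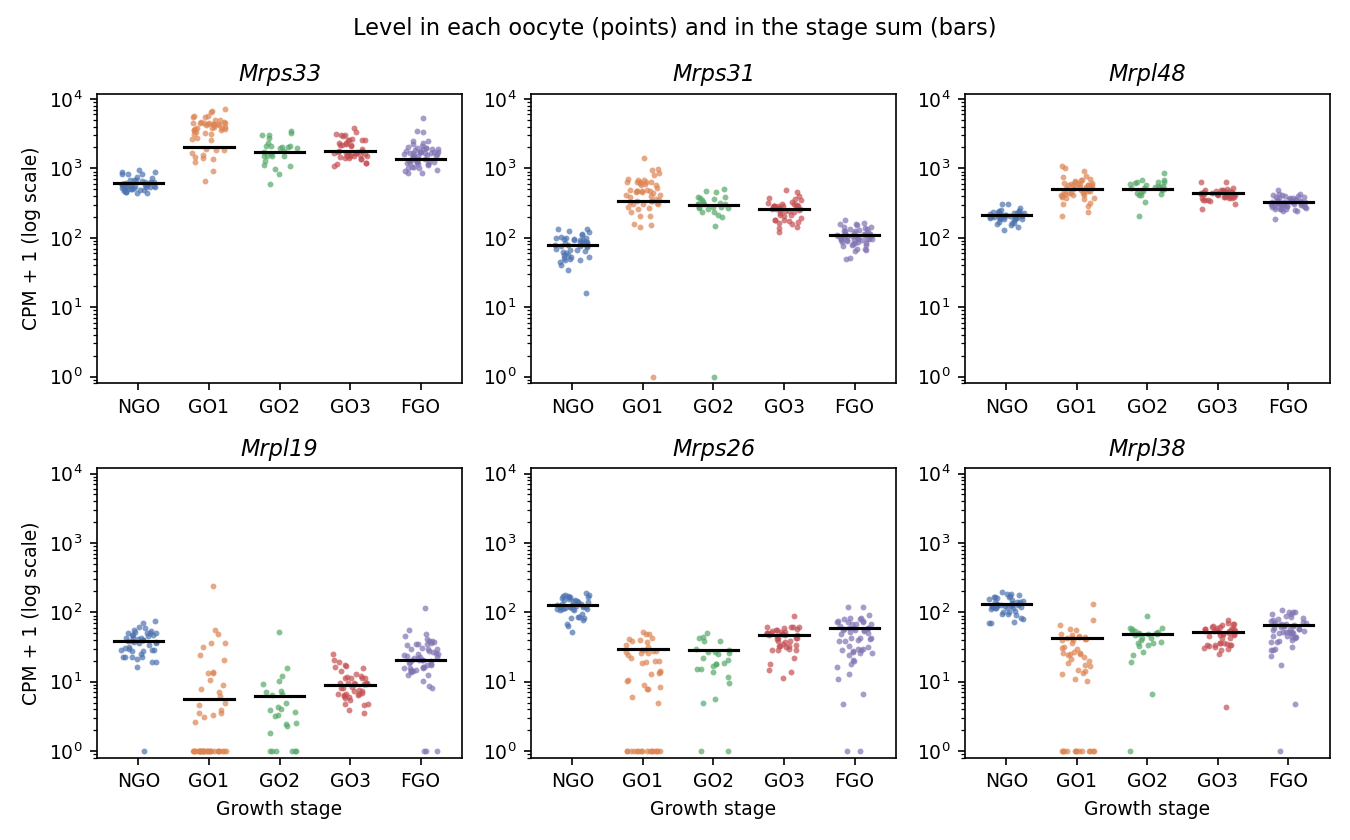
CPM + 1 (log scale) of Mrps33, Mrps31, Mrpl48, Mrpl19, Mrps26 and Mrpl38 by growth stage, with a point for each oocyte and a bar for the sum over the stage. The upper 3 genes are lowest in NGO, whereas the lower 3 are highest there and have GO1 oocytes without a UMI (at 1 on the axis).

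The next 4 genes named by size fell between 2.44-fold and 3.82-fold. Mrpl20, whose bacterial counterpart acts early in assembly of the large subunit, went from 81.2 to 21.3 CPM. Mrps6, with a counterpart in the bacterial small subunit, went from 73.1 to 21.9 CPM and remained between 20.9 and 27.4 CPM later, and its exons overlap Slc5a3 on the same strand. Mrpl30, a large-subunit protein with a bacterial counterpart, went from 231 to 93.1 CPM. Mrps11, which lies on the platform of the small subunit, went from 112.9 to 46.3 CPM and was at 85.4 CPM in FGO, with a fall of 2.18-fold to 4.43-fold under the alternatives. Without the 10 deepest oocytes Mrpl30 was under the limit (-0.94 on the log2 scale). The other 5 that fell were Mrpl43 (2.29-fold), Mrps15 (2.28-fold), Mrpl17 (2.05-fold), Mrps10 (2.05-fold) and Mrps2 (2.001-fold), and Mrpl54 was just inside the limit at 1.97-fold. Of these, Mrpl17 was under 2-fold in all 5 alternative scalings and weightings (1.75-fold to 1.91-fold). Mrps10 and Mrps2 were so with the size factors of DESeq2 and with TMM factors, and reached 3.84-fold and 3.52-fold after thinning.

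Later growth brought few further changes in the stage sums, but some counts were larger when deep oocytes weighed less. From GO1 to FGO, 4 genes rose in the sums and 21 after thinning, where 7.98% and 18.6% of all genes tested rose. From GO1 to GO2 no gene of the 75 tested passed the limit (3.14% of 7356 genes did). When each oocyte counted equally, 2 passed it, and over all genes tested 4.16% rose and 12.3% fell. From GO2 to GO3, 1 of 76 did (4.35% of 7334 genes), which was Mrps34, 3.02-fold (2.42 to 3.82) higher. Under the alternatives Mrps34 ran from 2.73-fold to 9.45-fold, with no call in 1 of them. The 9.45-fold value was after thinning, where only 1 UMI of Mrps34 was left in GO2 and 16 in GO3. From GO3 to FGO, 3 of 77 did (5.96% of 7622 genes). Mrpl19 was 2.43-fold (2.17 to 2.72) higher in FGO (down to 1.57-fold under the alternatives), Mrps31 was 2.39-fold (2.32 to 2.46) lower, and Mrpl9, a large-subunit protein with a bacterial counterpart, was 2.10-fold (2.05 to 2.16) higher. Mrpl9 went through 358, 214, 227, 155.1 and 326 CPM from NGO to FGO, with medians over oocytes of 337, 121.2, 176, 142.4 and 339 CPM. Its level was thus lowest in GO3 in the sums and in GO1 over single oocytes. Mrpl9, Mrpl54 and the 5 genes that fell outside the ranking by size were picked out after their values were seen.

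From GO1 to FGO, over the whole of later growth, 4 of 77 genes rose and 1 fell, where 7.98% and 9.03% of the 7873 genes tested did. The family's median was 0.21 on the log2 scale and that of all genes 0.02. Those that rose were Mrpl19 (4.27-fold, 3.55 to 5.18), Mrps34 (3.66-fold, 3.00 to 4.51), Mrpl27 (2.16-fold, 1.99 to 2.33) and Mrps26 (2.08-fold, 1.92 to 2.25). Under the alternatives the lowest ratio of Mrpl19 was 2.09-fold, Mrps26 reached 3.37-fold, and Mrpl27 ran from 1.94-fold, without the 10 deepest oocytes, to 3.46-fold. Mrpl27 has a bacterial counterpart whose tail reaches the peptidyl transferase centre, and it stood at 44.4 CPM in NGO, then 28.5, 28.1, 49.1 and 61.4 CPM through the later stages in order of growth. The gene that fell was Mrps31. This comparison and that of NGO with GO1 share the GO1 oocytes, so a low GO1 value enters both, and with equal weight for each oocyte 14 genes rose and 2 fell, where 16.99% of all genes tested rose. Beside the shared stage, the NGO and FGO levels can be set side by side: 37.5 and 19.6 CPM for Mrpl19, 26.7 and 14.9 CPM for Mrps34, and 125.4 and 58.7 CPM for Mrps26.

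Paralogues and the most abundant genes showed how members differ. The Mrps18 genes encode related proteins, of which Mrps18b and Mrps18c sit in the small subunit and Mrps18a in the large one. Mrps18a stood at 133.4, 125.5, 140.97, 139.4 and 159.3 CPM from NGO to FGO. Mrps18c stood at 172, 289, 271, 239 and 210 CPM, 1.68-fold (1.62 to 1.75) higher in GO1 than in NGO and under the limit, whereas Mrps18b had a ratio of 1.01 (0.964 to 1.07). After Mrps33, the most UMIs fell on Mrps36 (131910) and Mrps14 (85643). Mrps36 was at 556 CPM in NGO and 596, 539, 645 and 877 CPM in turn at the stages from GO1 to FGO, and pseudogenes bearing its name exist.

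Promoters were examined for the letters of 3 motifs that occur in many genes of mitochondrial function. RefSeq windows of 300 bases (GRCm38.p6, 250 before to 50 after the start) were found for 69 of the 78 genes, with more than 1 window for Mrpl2, Mrpl48 and Mrps16, and a gene was counted when any of its windows held the letters. The core of NRF1, a factor known from genes of respiration, was searched as CGCATGCG, that of ETS factors such as GABP as CCGGAAG and that of YY1 as AAGATGGCG, each on both strands and with no mismatch. The NRF1 core was found for 7 of the 69 genes (10.1%), against 5.22% of the 6788 genes tested that have a window and 2.07% of all 27025 genes with one. The ETS core was found for 26 (37.7%, against 22.95% and 9.93%), and the YY1 core for 8 (11.6%, against 4.24% and 1.64%). At least 1 of the 3 was found for 36 of the 69 (52.2%), against 29.98% of the genes tested and 12.8% of all genes with a window. By direction these were 2 of the 5 genes that rose, 4 of the 10 with a window that fell and 30 of the 53 that did neither. These are matches of letters and not sites of binding.

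The windows of 5 genes are shown, with matches in capitals. Mrps33 (chr6:39810887-39811186, minus strand) is the most abundant gene and rose, and holds the ETS core in reverse after its start. Mrps31 (chr8:22411090-22411389, plus strand) had the largest rise and holds none of the 3. Mrpl17 (chr7:105811038-105811337, minus strand) was at the limit of a fall, and holds the ETS and the NRF1 core. Mrps11 (chr7:78782881-78783180, plus strand) fell, holds the YY1 core in reverse, and shares its start region with Mrpl46 (chr7:78783040-78783339, minus strand). The Mrpl46 window holds none, and it stops short of the YY1 match of Mrps11.
Mrps33: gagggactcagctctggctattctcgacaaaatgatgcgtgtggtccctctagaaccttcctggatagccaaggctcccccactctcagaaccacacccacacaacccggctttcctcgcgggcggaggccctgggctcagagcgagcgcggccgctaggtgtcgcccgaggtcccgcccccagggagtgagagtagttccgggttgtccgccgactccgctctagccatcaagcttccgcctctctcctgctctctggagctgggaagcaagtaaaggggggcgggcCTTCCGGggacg
Mrps31: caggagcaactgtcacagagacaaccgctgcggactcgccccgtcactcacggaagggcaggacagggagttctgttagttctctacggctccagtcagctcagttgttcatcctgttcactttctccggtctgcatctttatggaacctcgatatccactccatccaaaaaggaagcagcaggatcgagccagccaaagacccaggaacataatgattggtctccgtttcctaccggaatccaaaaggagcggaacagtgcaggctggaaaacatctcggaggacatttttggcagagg
Mrpl17: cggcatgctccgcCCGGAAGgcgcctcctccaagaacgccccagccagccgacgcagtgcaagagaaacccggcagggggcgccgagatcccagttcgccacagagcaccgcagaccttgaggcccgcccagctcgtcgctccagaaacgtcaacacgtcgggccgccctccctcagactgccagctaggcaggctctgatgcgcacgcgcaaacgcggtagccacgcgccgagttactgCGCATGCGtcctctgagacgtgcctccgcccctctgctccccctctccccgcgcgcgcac
Mrps11: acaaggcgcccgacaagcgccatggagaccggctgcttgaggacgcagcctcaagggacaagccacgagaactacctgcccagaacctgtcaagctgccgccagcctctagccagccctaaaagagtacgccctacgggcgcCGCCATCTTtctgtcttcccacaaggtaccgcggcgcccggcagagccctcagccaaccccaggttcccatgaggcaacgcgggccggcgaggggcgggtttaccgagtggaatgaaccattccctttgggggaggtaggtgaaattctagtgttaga
Mrpl46: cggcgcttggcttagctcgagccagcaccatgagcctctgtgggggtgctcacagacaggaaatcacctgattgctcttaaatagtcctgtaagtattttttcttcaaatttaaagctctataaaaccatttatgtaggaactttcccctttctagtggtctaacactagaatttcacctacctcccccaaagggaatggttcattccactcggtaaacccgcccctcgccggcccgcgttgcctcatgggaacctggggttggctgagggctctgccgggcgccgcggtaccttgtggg

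Mrps11 and Mrpl46 are a divergent pair of the family, chosen after their values were seen, whose starts lie so close that 173 bases of their mm9 exons overlap. Mrpl46 belongs to the large subunit and is found only in mitochondria. Its level was 81.6, 132.3, 144.3, 147.9 and 130.6 CPM from NGO to FGO in order of growth, a log2 ratio of 0.70 from NGO to GO1, where that of Mrps11 was -1.29. Of this pair Mrps11 fell, and the ratio of Mrpl46 was under the limit with the opposite sign. Mrpl43 stands in the same arrangement with Twnk, the gene of the mitochondrial DNA helicase, with 97 exon bases shared. There both were lower in GO1, Mrpl43 at 46.6 and then 20.3 CPM and Twnk at 54.7 and then 25.2 CPM. Where strand was not used in counting, reads from the shared bases cannot be told apart.

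Proteins and factors that work with the mitochondrial ribosome were taken from lists by function, and their counts stand against 20.6% of all genes tested that rose and 25.7% that fell. Among 5 subunits with other names 1 rose and none fell from NGO to GO1: Gadd45gip1, a large-subunit protein, went from 249 to 501 CPM (2.01-fold, 1.95 to 2.07), and Ptcd3, of the small subunit, stood at 32.2 and 23.2 CPM. Of 23 assembly and rRNA-modifying factors 1 rose and 8 fell, with a median of -0.53 on the log2 scale. Mrm1 and Mrm2, which methylate the ribosomal RNA of mitochondria, went from 10.1 to 0.673 CPM and from 14.2 to 1.53 CPM. Of 14 translation factors 2 rose and 3 fell (14.3% and 21.4%). Mtrf1, a release factor, rose 4.16-fold (3.91 to 4.42), from 51.5 to 214 CPM, whereas its relative Mtrf1l fell from 15.9 to 3.89 CPM.

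The enzymes that charge mitochondrial tRNAs with amino acids were mostly lower in GO1. Of 13 tested 9 fell and none rose, with a median of -1.82 on the log2 scale, and all 13 were lower in GO1. The falls were 69.2% of the list. Iars2 went from 12.2 to 1.27 CPM. Hars2 went from 254 UMIs to 3 UMIs, a ratio of 89.9 with a counting interval of 30.4 to 439. Of 7 genes that copy or transcribe mitochondrial DNA 1 rose and 2 fell (14.3% and 28.6%): Tfam, which packages the DNA and starts its transcription, went from 121.3 to 38.01 CPM, and Mterf1a rose (3.49 and 15.7 CPM). Of 5 regulators of mitochondrial biogenesis 1 fell, Gabpa, a subunit of the ETS factor GABP, from 16.9 to 1.91 CPM, with 1.56 in GO2, 3.35 in GO3 and 5.64 in FGO. Ppargc1b, a coactivator of that programme, stood at 5.40 CPM in NGO and 10.1 CPM in GO1.

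**Figure D5:**
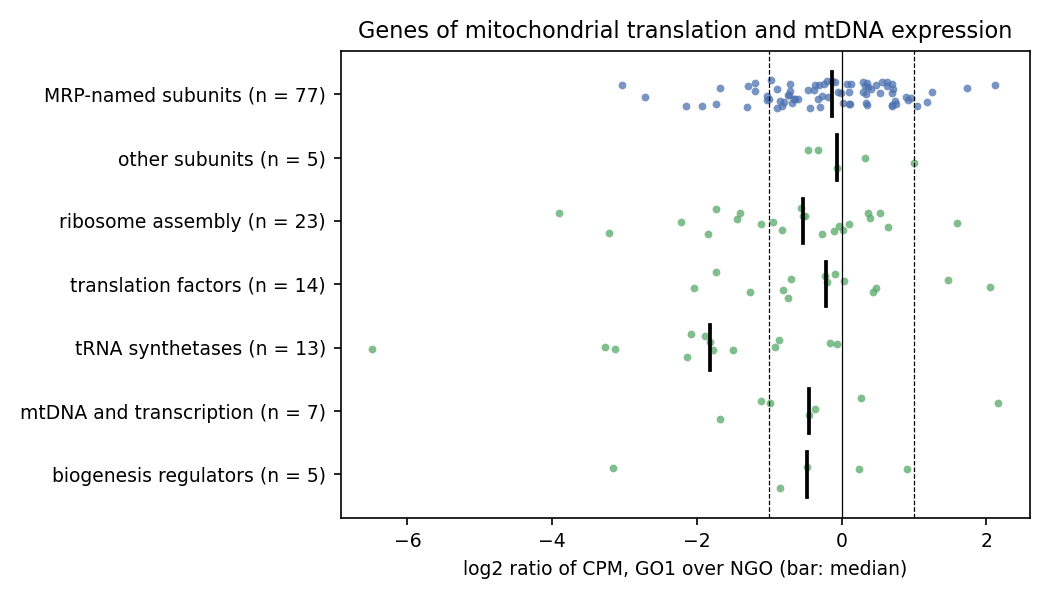
Log2 ratio of CPM in GO1 over NGO for the mitochondrial ribosomal protein genes and for 6 lists of genes that work with the mitochondrial ribosome or genome, with a point for each gene at 10 CPM or more in either stage, a bar for the median and dashed lines at 2-fold. The tRNA synthetases have the lowest median (-1.82) and the ribosomal protein genes lie around -0.13, with genes on both sides.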

How the data were processed

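Single-cell RNA-seq of oocytes was analysed. The iscCOOL-seq data (chromatin accessibility and DNA methylation) were not analysed here. Per the study's methods, the authors used Tophat with the mm9 transcriptome as reference, collapsed reads of one UMI to a single count, and kept oocytes that passed limits on detected genes, transcripts and ERCC spike-in reads. The deposited table holds raw UMI counts for each gene in each oocyte. Oocytes were picked by hand and no doublet caller was run. Column names give the stage of a cell and not its library.

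CPM were computed from the UMIs summed over the oocytes of a stage, relative to all UMIs of that stage. A gene was called at 2-fold and 10 CPM in the higher stage. Poisson intervals of sums and binomial intervals of ratios are exact at 95%. The TMM factors of edgeR 4.0.16 and the size factors of DESeq2 1.42.0, served as alternatives with no test. Others were the mean over oocytes, thinning to 20000 UMIs, leaving out the 10 deepest oocytes of a stage, no minimum and a minimum of 50 CPM. Python 3.11.15 with numpy 2.4.6, pandas 2.3.3 and scipy 1.17.1 was used. The calling step was tested on simulated stage sums that held counting error alone, so the spread between oocytes was not covered.

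Genes were named by rule: the 8 with the highest and the 8 with the lowest ratio of GO1 over NGO, the 4 with the highest and the 4 with the lowest ratio of FGO over GO1, the Mrps18 genes, the 3 with most UMIs, those under 10 CPM throughout, and the 2 with the largest ratio of each pathway list. Exceptions are said where they occur. The genes and lists were chosen with earlier results of these data known, and the assignment to subunits was written after the data were seen. Positions are those of GENCODE vM1 on NCBIM37 (mm9), and promoter windows those of RefSeq on GRCm38.p6. Of the 78 genes, exons of 27 overlap another gene, 6 of them on the same strand.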

Additional observations from a re-analysis of the deposited data

How the results depend on the processing

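No paired analysis was possible because the columns carry no replicate or library number and each stage is 1 pooled sample. For the same reason leaving out a replicate was not possible. From NGO to GO1, 5 genes rose in the main count, 8 with TMM factors and 9 without the 10 deepest oocytes of each stage, and 7 with DESeq2 size factors. There 13 fell in the main count, 20 as a mean over oocytes, 22 after thinning to 20000 UMIs and 20 without the deepest oocytes. Over all genes the split of 1758 higher and 2193 lower became 2043 and 1797 with TMM factors, and 1837 and 3189 without the deepest oocytes. From GO1 to FGO, 4 rose in the main count, 14 as a mean over oocytes, 21 thinned, 14 without the deepest oocytes and 2 at a minimum of 50 CPM, while the share of all genes that rose went from 7.98% to 16.99%, 18.6% and 22.3% in the mean, thinned and without the deepest, and the 1 that fell became 2 in the mean, thinned and without the deepest. From GO1 to GO2, 0 changed in the main count, 2 in the mean, 4 thinned and 4 without the deepest. Of all genes tested, 4.16% were higher and 12.3% lower in the mean, 8.32% and 15.6% thinned, and 9.43% and 8.24% without the deepest. From GO2 to GO3, 1 changed in the main count, 5 thinned, 4 without the deepest and 0 at 50 CPM. Here 12.2% of all genes tested were higher and 3.81% lower thinned, and 5.88% and 1.67% without the deepest. The log2 ratio of the summed level from NGO to GO1 was 0.26 in the main setting, 0.36 with DESeq2 size factors, 0.42 with TMM factors, 0.40 as a mean, 0.40 thinned, 0.47 without the deepest and 0.093 without Mrps33, the last chosen after seeing the data. From GO1 to FGO it was 0.0061, and -0.013, 0.020, -0.049, -0.018, -0.18 and 0.095 in the same settings, so its sign changed with DESeq2 size factors, in the mean, thinned and without the deepest. The cause was not tested. Of 290 values of single named genes under the alternatives, 229 kept their direction and their side of the limit, 12 no longer passed it, 33 newly passed it, and 16, of 6 genes under the limit in the main setting, changed sign. No change past the limit in the main setting changed sign, but the sizes of several moved by over 1.5 times, as given beside them. Depth limits single oocytes most in GO1.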

Other observations

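Depth moved with the level of some of the genes described above within GO1 and hardly with that of others, and values are given here without explanation. Mrpl9 stood at 236 CPM in the 10 deepest GO1 oocytes and 126.3 CPM in the other 41, Mrps2 at 30.3 and 18.9 CPM, Mrps11 at 50.1 and 30.4 CPM, and Mrpl46 at 137.002 and 113.1 CPM. The order was the opposite for Mrps18c (265 and 390 CPM) and Mrps36 (558 and 748 CPM). In NGO the same split gave 366 and 353 CPM for Mrpl9 and 163 and 178 CPM for Mrps18c.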
